A study of Mus musculus with 2 samples.

Results

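The genes described here are 50 named long noncoding RNAs of mouse embryonic stem cells, of 47643 gene IDs listed in the count files. A gene entered by its symbol: every gene called Platr or Snhg with a number that GENCODE M21 does not annotate as protein-coding, and Malat1, Neat1, Tug1, Gas5, Epb41l4aos, Mir17hg, Mir22hg, Firre and Lncenc1. The rule itself used no measured value, but the members were chosen with earlier results of these data known. GENCODE M21 places all of them among its long noncoding RNA genes, of which 9355 were listed. They were divided by what they are known for. The pluripotency-linked class held 29 genes, namely the Platr genes and Lncenc1. The snoRNA-host class held 15 genes, namely the Snhg genes, Gas5 and Epb41l4aos. The microRNA hosts were Mir17hg and Mir22hg, and the remaining 4 were Malat1, Neat1, Tug1 and Firre. RefSeq lists Platr18 as another name of Lncenc1.

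Polyadenylated RNA was sequenced in 2 libraries of 1 group: cells of the E14 line, 129/Ola background, blastocyst-derived, with the genotype AGO1&AGO2 Double KO, grown in medium with 15% serum and 100 U/mL of LIF on dishes coated with 0.2% gelatine. No cells with intact Argonaute genes were analysed here, and no value below is an effect of the knockout. Whether separate cultures or clones were used is not in the labels; p-values between the libraries therefore describe only these 2, and their spread may be technical. The libraries held 34798975 and 29789560 counts. Both targeted genes had reads: Ago1 had 2463 counts in replicate 1 and 4205 in replicate 2, and Ago2 had 4304 and 3839, and the log2 ratio of Ago1, replicate 2 over replicate 1, was 0.99 ± 0.04 (counting SE, adjusted p = 1.37e-08 by edgeR's exact test). Whether those reads come from disrupted transcripts cannot be told from gene counts. All 8 stem cell markers were expressed. Of 8 fibroblast markers 3 reached 1 CPM (read counts scaled to a library total of 1000000) in both libraries, and Col3a1, Lum and Postn were at 0. The summed level of that list was 30.7 and 29.4 CPM, mostly from Thy1, which had 859 and 688 counts. Of 5 markers of primitive endoderm 1 was expressed, and all 5 neural markers were, with a median of 2.92 and 2.86 TPM. The exact binomial test described below called 7 of the 8 stem cell markers (5 higher and 2 lower in replicate 2). It called 24.2% of all genes tested and 32% of those with at least 100 counts. The log2 ratios of the 8 were small, from -0.17 for Dppa5a to 0.12 for Sox2. Neurod1 (0.65) and Col1a1 (0.58) were called higher and Gata4 (-0.42) lower. Of all these markers, 0 were called by edgeR's exact test and 1, Neurod1, had an unadjusted p under 0.05 in it. The part of these differences in the results below was not tested.

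Long noncoding RNAs are transcripts that carry no long reading frame and act, where a function is known, as RNA or through the act of their transcription. Platr genes take their name from pluripotency-associated transcript, a set named for expression in embryonic stem cells that drops on differentiation. Lncenc1 is an RNA of naive embryonic stem cells. In snoRNA host genes the spliced exons are mostly a by-product: the introns carry small nucleolar RNAs, which guide chemical modification of ribosomal RNA, and the spliced RNA is often a target of nonsense-mediated decay. Many of these hosts begin with a run of pyrimidines, as ribosomal protein genes do. Malat1 sits in nuclear speckles, Neat1 is the scaffold of paraspeckles, and Firre is a repeat-rich RNA of the X chromosome.

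Start-site sequences are shown for the classes that are compared, as features that the choice by name did not use. RefSeq promoter windows (GRCm38.p6) were found for 32 of the 50 genes. Each line holds the 40 bases before the start site and the 25 bases from the start site onward. Capitals mark a run of at least 6 pyrimidines that touches the 10 bases either side of the start, and TATAAA on either strand beginning 40 to 20 bases before it. The first 6 are hosts and the last 3 are pluripotency-linked. Snhg1, Snhg5, Snhg8 and Snhg12 were picked to show such runs, after the matches were known. Gas5 and Snhg3, among the most abundant hosts, are shown as hosts without one in these windows. The RefSeq start of Gas5 lies 179 bases downstream of its GENCODE start, so its line does not show the GENCODE start.
Snhg1, chr19:8723447-8723511, plus strand: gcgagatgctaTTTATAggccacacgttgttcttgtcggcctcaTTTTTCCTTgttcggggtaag
Snhg5, chr9:88522873-88522937, minus strand: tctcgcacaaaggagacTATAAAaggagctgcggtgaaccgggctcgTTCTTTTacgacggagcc
Snhg8, chr3:123508312-123508376, minus strand: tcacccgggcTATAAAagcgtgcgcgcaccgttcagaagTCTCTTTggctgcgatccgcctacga
Snhg12, chr4:132308638-132308702, plus strand: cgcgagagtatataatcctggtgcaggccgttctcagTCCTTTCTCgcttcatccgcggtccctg
Gas5, chr1:161034561-161034625, plus strand: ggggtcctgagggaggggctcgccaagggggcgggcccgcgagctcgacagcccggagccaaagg
Snhg3, chr4:132353662-132353726, minus strand: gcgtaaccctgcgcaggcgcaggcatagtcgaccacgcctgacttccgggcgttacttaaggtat
Lncenc1, chr13:97434930-97434994, plus strand: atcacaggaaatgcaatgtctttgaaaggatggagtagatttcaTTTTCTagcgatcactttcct
Platr10, chr3:75655707-75655771, minus strand: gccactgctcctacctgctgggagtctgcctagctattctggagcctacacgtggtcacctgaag
Platr7, chr10:84553314-84553378, minus strand: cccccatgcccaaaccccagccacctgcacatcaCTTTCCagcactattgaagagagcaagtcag
A pyrimidine run at the start was present in 6 of 13 hosts with a window (46.2%), in 4 of 14 pluripotency-linked genes (28.6%) and in 29.1% of 27025 genes with a window. TATAAA at that distance was present in 3 of 13 hosts (23.1%), namely Snhg1, Snhg5 and Snhg8, in 0 of 14 pluripotency-linked genes and in 2.75% of all. Anywhere in the 300-base window, on either strand, the octamer ATGCAAAT was found in 1 of 14 pluripotency-linked windows (Platr21) and in 1.75% of all. The estrogen-related receptor element TCAAGGTCA was found in none of the 14 or of the 13 and in 0.407% of all, and the E-box CACGTG in 1 of 14 and 2 of 13, against 7.24% of all. These are matches of letters, with no test, and in 23 of the 32 windows the start site lies within 100 bases of the GENCODE start. Of hosts counted without a run, it lies farther off in Gas5 (179), Snhg20 (775), Snhg7os (1749) and Snhg14 (-474418 bases, negative meaning upstream). Among pluripotency-linked genes it does so in Platr3 (-2384) and Platr6 (-1182), both with a run, and in Platr14 (296), without one. The shares may depend on these windows, which was not tested.

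Most of the named RNAs were expressed. At a threshold of 1 CPM in both libraries, 38 of 50 passed, against 6.36% of all listed long noncoding RNA genes, 29.6% of all gene IDs and 58% of protein-coding genes. Platr genes are named for expression in embryonic stem cells, so the share that passed was partly set by the choice of names. By class, 20 of 29 pluripotency-linked genes, 12 of 15 snoRNA hosts, both microRNA hosts and all 4 others passed. Together they had 2486 CPM in replicate 1 and 2603 CPM in replicate 2. That was 23.9 and 22.2% of all counts assigned to long noncoding RNA genes, and 0.249 and 0.260% of the libraries. All long noncoding RNA genes together had 10397 and 11706 CPM.

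Between genes, levels were compared as TPM, counts scaled by GENCODE exon length and then to a fixed total per library. Among long noncoding RNA genes ranked by mean TPM, 9 of the first 20 were among the 50, of which 5 were hosts and 3 pluripotency-linked. Rank 1 was Gm42418, not one of the 50, with 2334 TPM in replicate 1 and 3906 in replicate 2. The list also holds genes that M21 files as processed transcripts of coding loci, such as Cct6a and Ifi30. Lncenc1 had rank 7 with 295 and 322 TPM, and Malat1 rank 8 with 283 and 292 TPM. In TPM, Lncenc1 was higher than Malat1 in both libraries, with means of 309 ± 19.1 and 288 ± 5.88 (SD, n = 2 libraries). In CPM the order was the reverse, with 352 and 386 for Lncenc1 and 716 and 741 for Malat1. The order in TPM thus rests on the exon lengths used, 3301 bases for Lncenc1 and 6983 for Malat1. How fully the selection of polyadenylated RNA captured each of them was not measured. Platr10 followed with 161 and 194 TPM, Platr3 with 159 and 154, Snhg3 with 152 and 159, Gas5 with 138 and 134, and Snhg5 with 131 and 136. Epb41l4aos had 120 and 119 TPM and Snhg1 had 119 and 117. The values of Platr10 lay above those of the others, whereas Platr3 and Snhg3, Gas5 and Snhg5, and Epb41l4aos and Snhg1 overlapped and cannot be ordered within each pair.

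**Figure D1:**
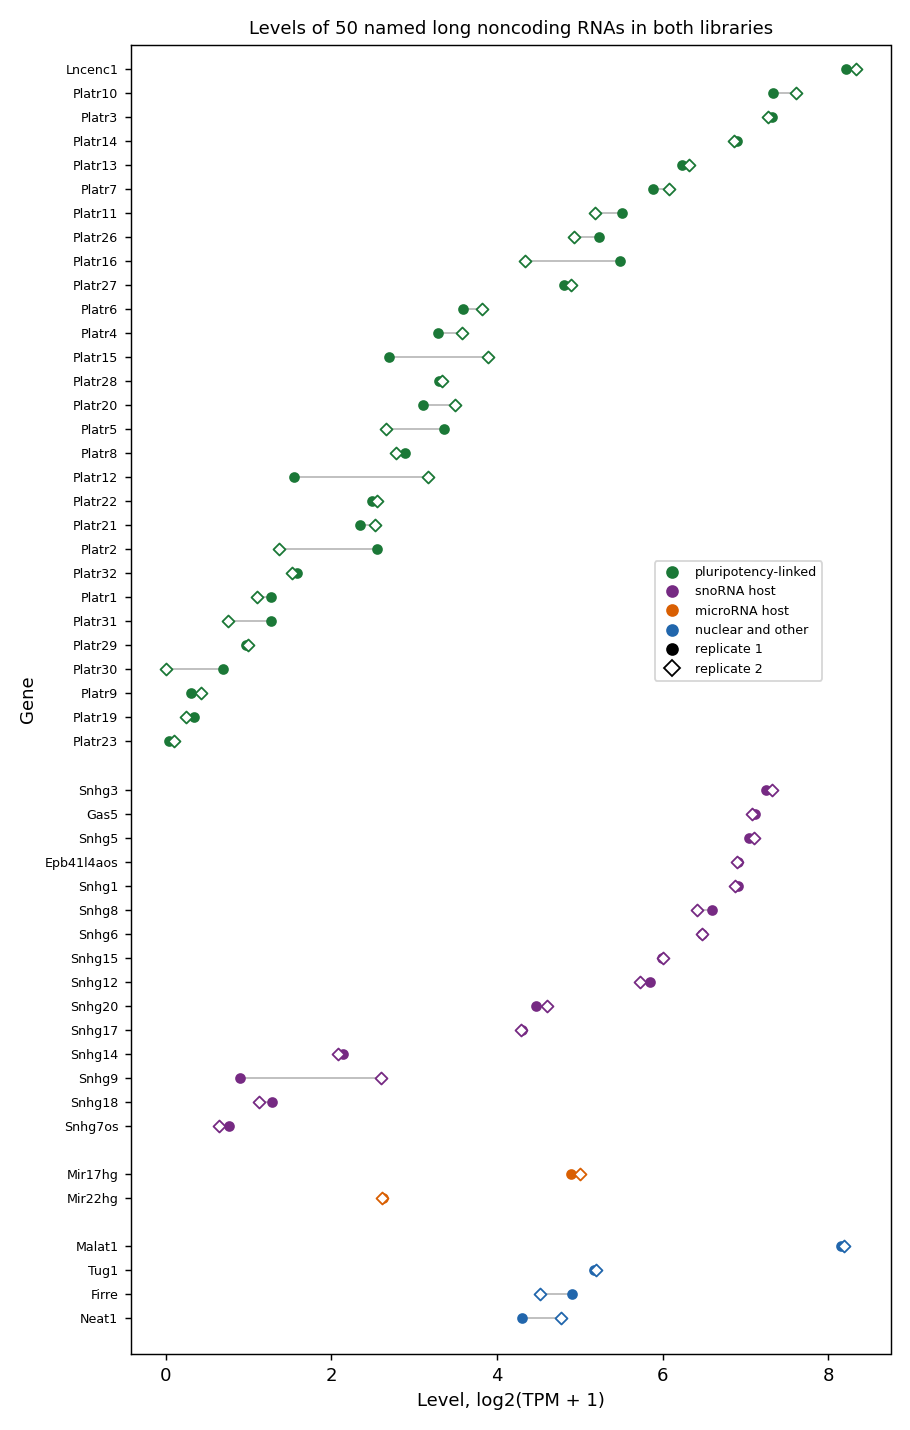
Level of each of the 50 genes as log2(TPM + 1) on the horizontal axis, with filled circles for replicate 1 and open diamonds for replicate 2, ordered by mean within each class. Pluripotency-linked genes spread evenly from 0 to above 8, whereas most hosts lie above 4 and 4 hosts lie below 3.

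The classes had different typical levels and nearly the same total. The median pluripotency-linked gene had 7.66 TPM in replicate 1 and 9.13 TPM in replicate 2, and the median host had 62.5 and 63.3 TPM. The difference of the median log2(TPM + 1), pluripotency-linked minus host, was -2.77 ± 0.15 (SD, n = 2 libraries), with -2.87 in replicate 1 and -2.67 in replicate 2. A typical host was thus 8.16-fold and 6.93-fold above a typical pluripotency-linked gene. In summed TPM, however, the 29 pluripotency-linked genes had 1098 and 1137 and the 15 hosts 1008 and 1004, because Lncenc1 and a few Platr genes carried most of that class. In summed CPM the values were 658 and 715 against 720 and 713. Among genes that passed 1 CPM in both libraries the difference of the medians was -2.33. The difference turns to 2.19 when only genes without any exon overlap with another gene are kept, which leaves 3 hosts (Epb41l4aos, Snhg7os and Snhg18) and 25 pluripotency-linked genes, since most hosts contain annotated snoRNA genes. With overlaps by small RNA genes allowed it was -2.86, over 10 hosts and 25 pluripotency-linked genes. Members of a class are not replicates, and no test across genes was made.

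Lncenc1 (chr13:97434970-97497007, plus strand, up to 3 exons) was the most abundant pluripotency-linked RNA. It had 12263 counts in replicate 1 and 11511 in replicate 2, or 352 CPM (95% exact Poisson interval 346 to 359) and 386 CPM (379 to 394). Such intervals, here and below, cover counting error only. Platr10 (chr3:75647446-75655731, minus strand) had 3530 and 3665 counts, or 101 and 123 CPM. In both genes the intervals of the libraries were apart, with replicate 2 the higher. Platr14 (chr2:104559163-104571429, plus strand) had 2357 and 1974 counts, or 67.7 and 66.3 CPM. Platr3 (chr2:135648907-135652063, plus strand) had 823 and 688 counts, or 23.7 and 23.1 CPM, and ranked above Platr14 in TPM because its exons add up to 412 bases. Platr13 (chr11:41218837-41221096, plus strand), with 375 exonic bases, had 352 and 320 counts, or 10.1 and 10.7 CPM. For Platr14, Platr3 and Platr13 the intervals of both libraries overlapped.

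At the low end of the class, Platr23 had 1 and 2 counts, Platr19 had 5 and 3, Platr9 had 7 and 9, Platr29 had 10 and 9, and Platr32 had 10 and 8. These genes had few reads, and at this depth no difference between the libraries could be seen in them. The ratio of replicate 2 over replicate 1 for Platr23 was 2.33, with a 95% Clopper-Pearson interval from 0.121 to 138, and for Platr19 it was 0.70, with an interval from 0.109 to 3.60.

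The 5 most abundant snoRNA hosts had close values in both libraries. Gas5 (chr1:161034422-161038539, plus strand, up to 12 exons), a host of many box C/D snoRNAs, had 6546 and 5446 counts, or 188 CPM (184 to 193) and 183 CPM (178 to 188). Snhg1 (chr19:8723475-8726443, plus strand) had 4456 and 3755 counts, or 128 and 126 CPM. Snhg5 (chr9:88521050-88522929, minus strand) had 2846 and 2557 counts, or 81.8 and 85.8 CPM. Snhg3 (chr4:132348014-132353686, minus strand) had 1881 and 1693 counts, or 54.1 and 56.8 CPM, and Epb41l4aos (chr18:33794892-33795986, plus strand) had 647 and 553 counts, or 18.6 and 18.6 CPM. In all 5 the Poisson intervals of the libraries overlapped. Snhg3 shares exons on the same strand with Rcc1, which had 6020 and 4995 counts, and 17.2% of the 50-base stretches in its transcripts occur in other genes, so its count is uncertain.

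Of the 15 hosts, 4 were low. Snhg7os, which the naming rule takes in although it is an antisense gene of Snhg7 with no annotated snoRNA, had 35 and 24 counts. Snhg18 had 27 and 19 counts, and Snhg9 had 2 and 10. Snhg9 overlaps Rps2, a ribosomal protein gene on the opposite strand with 69678 and 63984 counts. The ratio of replicate 2 over replicate 1 for Snhg9 was 5.83, with an interval from 1.24 to 54.7. Snhg14, the long transcript of the Ube3a region, had 1125 and 915 counts spread over 26093 exonic bases, or 3.42 and 3.24 TPM. Other genes on the same strand cover 0.820% of its exonic bases. Gm38393, listed with 1013 and 856 counts, is among them, and reads in the shared bases cannot be told apart. On the opposite strand Ube3a, with 4954 and 4793 counts, covers 6.91% of the exonic bases of Snhg14, and the strand setting of the counting is not given.

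The files also list the snoRNAs inside these hosts. GENCODE places at least 1 snoRNA, or in Snhg20 a scaRNA (the related small RNA of Cajal bodies), within the body and on the same strand of 14 of the 15 hosts and of 0 pluripotency-linked genes. Gas5 holds 10, whose rows add up to 2308 and 1922 counts, or 35.3 and 35.3% of the counts of Gas5 itself. Snhg1 holds 8, with 1818 and 1502 counts, or 40.8 and 40% of its own. Snhg3 holds Snora73a and Snora73b, with 959 and 824 counts together, or 51.0 and 48.7%. Snhg5 holds 2, Snord50a and Snord50b, with 97 and 91 counts, or 3.41 and 3.56%. The share was alike in both libraries for each of these hosts. Snhg14 holds 208 snoRNAs, and all of them were at 0 in both libraries, which allows up to 0.0862 CPM per row in replicate 1 and 0.101 CPM in replicate 2 for counting error alone. Libraries were made from polyadenylated RNA, in which free snoRNAs are poorly represented, and whether a read in a snoRNA row was also counted for its host is not given in the sources used here. Nor is it given how reads shared by repeated genes were counted, so a row at 0 may have lost reads.

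The microRNA hosts carry the guides that Argonaute proteins load, so their mature sequences are printed with the seed, bases 2 to 8, in capitals. They come from RefSeq (GRCm38.p6).
miR-17-5p: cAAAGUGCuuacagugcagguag
miR-20a-5p: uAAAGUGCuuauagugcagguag
miR-18a-5p: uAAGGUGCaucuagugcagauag
miR-19a-3p: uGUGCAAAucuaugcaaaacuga
miR-19b-3p: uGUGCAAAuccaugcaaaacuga
miR-92a-3p: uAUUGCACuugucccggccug
miR-22-3p: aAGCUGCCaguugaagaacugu
The first 6 lie in Mir17hg (chr14:115042879-115046727, plus strand), the host of the miR-17-92 cluster, and the last in Mir22hg (chr11:75461539-75466676, plus strand). miR-17-5p and miR-20a-5p share a seed, which 7 mature mouse microRNA names in RefSeq carry, miR-19a-3p and miR-19b-3p share another, and the seed of miR-92a-3p occurs in 6 names. Mir17hg had 1285 and 1191 counts, or 36.9 CPM (34.9 to 39) and 40 CPM (37.7 to 42.3), and its log2 ratio was 0.11 with a counting SE of 0.06. Mir22hg had 125 and 107 counts, or 3.59 CPM in each library. Both pairs of intervals overlapped. These are counts of the host transcript, and mature microRNAs are not measured in such libraries.

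Malat1 (chr19:5795690-5802672, minus strand) had the highest count of the 50, with 24924 and 22065, or 716 CPM (707 to 725) and 741 CPM (731 to 751). Neat1 (chr19:5824708-5845478, minus strand) had 4904 and 5918 counts, or 141 CPM (137 to 145) and 199 CPM (194 to 204). Tug1 (chr11:3639785-3649673, minus strand) had 4292 and 3759 counts, or 123 and 126 CPM. Firre (chrX:50555744-50635321, minus strand) had 3024 and 1954 counts, or 86.9 CPM (83.8 to 90.1) and 65.6 CPM (62.7 to 68.6). Only for Tug1 among these 4 did the intervals overlap. Neat1, which lies beside Malat1 on the same strand, was higher in replicate 2, and Firre was higher in replicate 1. In a bulk sample, fewer cells that express an RNA and less of that RNA per cell cannot be told apart.

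The spread between libraries was then compared with that of all genes. For every gene with at least 10 counts in total, the split of its reads between replicate 2 and replicate 1 was tested with an exact binomial test (two-sided) that allowed for TMM-scaled library sizes, with Benjamini-Hochberg adjustment over 19078 genes and a threshold of 0.05. This test counts any difference beyond sampling noise. edgeR's exact test, with a dispersion estimated from both libraries as 1 group, was run beside it. Its dispersion takes in the very differences under test, and it calls few genes. Log2 ratios are replicate 2 over replicate 1 with 0.5 counts added. Of the 48 genes tested, 13 were called by the binomial test, 8 higher and 5 lower in replicate 2, against 24.2% of all tested genes (11.2% higher and 13.1% lower), 8.19% of long noncoding RNA genes and 32% of genes with at least 100 counts. At 27.1%, the share of the 48 lay near that of all genes.

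Calls were counted by class, with no test of the difference between classes. The share called was 24.2% over all genes tested, 8.19% over long noncoding RNA genes and 32% over genes with at least 100 counts. Of 27 pluripotency-linked genes tested, 10 were called, 6 higher and 4 lower in replicate 2. Of 15 hosts, 0 were called by the binomial test, with 3 at an unadjusted p under 0.05, and 0 by edgeR's exact test, with 1 at an unadjusted p under 0.05. Of the 4 nuclear and other RNAs 3 were called, and of the 2 microRNA hosts 0 were called by either test, with 0 at an unadjusted p under 0.05. Without a trend on GC content and length the counts were 7 of 27 pluripotency-linked genes and 6 of 15 hosts, against 20.9% of all genes. The contrast between these classes thus does not hold under that setting. The median absolute log2 ratio was 0.28 in the pluripotency-linked class, 0.07 in hosts and 0.16 over all genes tested. With at least 100 counts it was 0.25 over 21 pluripotency-linked genes, 0.06 over 12 hosts, 0.12 over all genes and 0.20 over long noncoding RNA genes. The 12 hosts ranged from -0.17 to 0.14. Depth differed between the classes: the median gene had 224 counts in both libraries together among the pluripotency-linked and 2040 among the hosts, with median counting SEs of 0.17 and 0.06.

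The absence of calls among hosts, and with it the contrast of calls between the classes, depends on how trends on GC content and length are treated. Across all tested genes the log2 ratio had a Spearman rho of -0.20 with GC content, given as a description across genes, which are not independent. A smooth trend on GC content, and then one of the remainder on log exon length, were removed. After that 20.9% of all genes were called, and the larger share of calls was then among hosts. The hosts called were Gas5 (-0.11), Snhg1 (-0.11), Snhg8 (-0.20) and Snhg12 (-0.15) lower, and Snhg20 (0.20) and Snhg9 (2.39) higher in replicate 2. Snhg8 was also called, at -0.17, when only genes with at least 100 counts were tested. Without the trend the median absolute log2 ratio was 0.11 among hosts and 0.21 in the pluripotency-linked class.

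**Figure D2:**
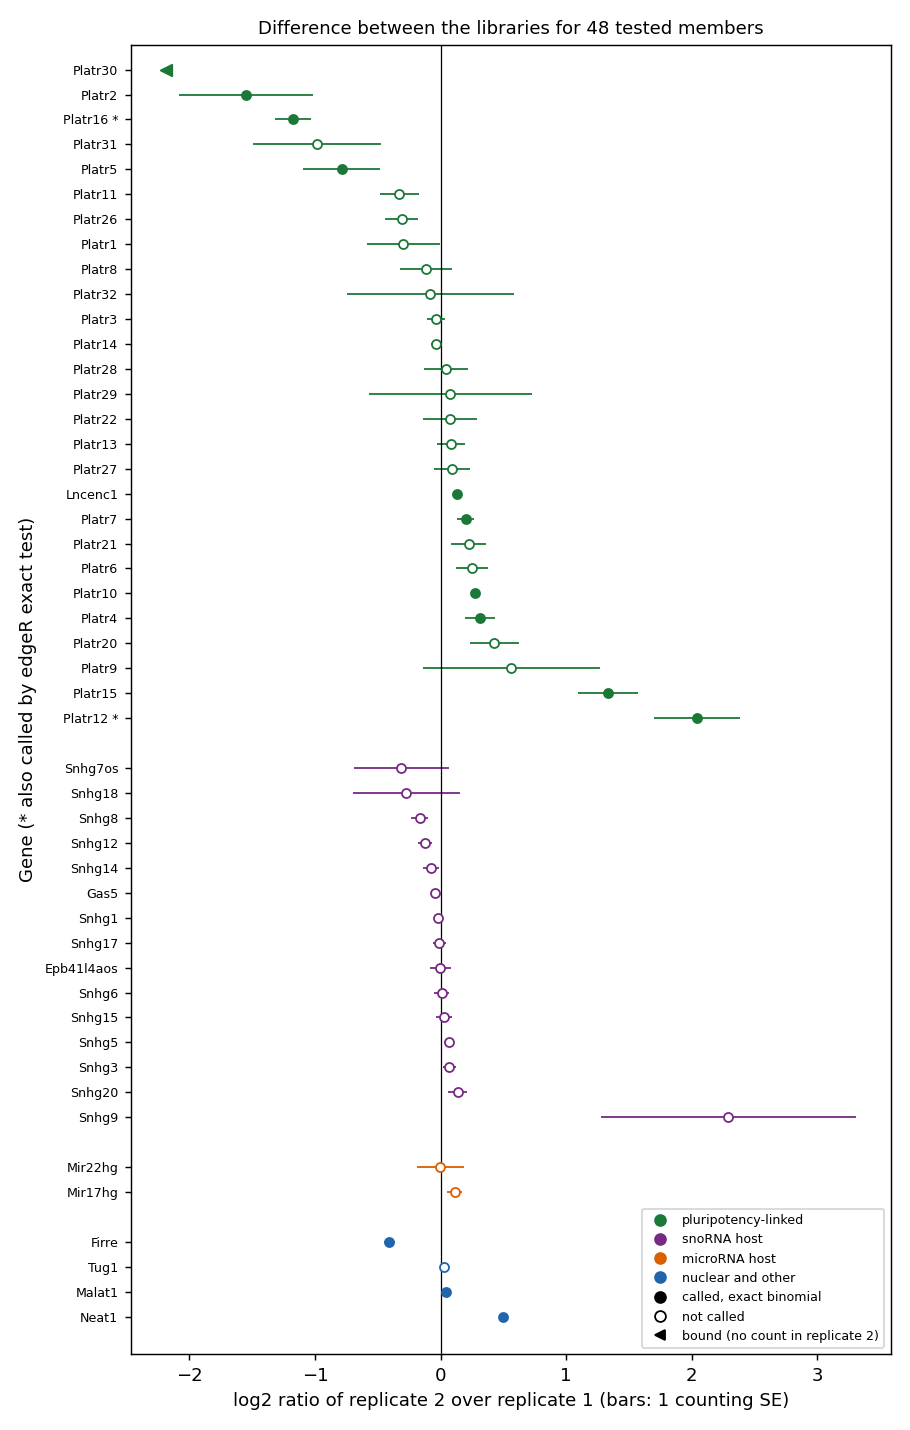
Log2 ratio of replicate 2 over replicate 1 for the 48 genes tested, with bars of 1 counting SE; filled points were called by the exact binomial test, an asterisk marks a call by edgeR's exact test too, and a triangle marks a bound. Among pluripotency-linked genes Platr12 lies highest at 2.04, and Platr30, Platr2 (-1.55) and Platr16 (-1.18) lie lowest, while hosts with narrow bars lie close to 0.

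Platr12 (chr1:63200313-63207967, plus strand) differed most among called genes with reads in both libraries. It had 22 counts in replicate 1 and 79 in replicate 2, or 0.632 CPM (0.396 to 0.957) and 2.65 CPM (2.1 to 3.31). The log2 ratio was 2.04 ± 0.34 (counting SE), and the adjusted p was 1.92e-09 by the exact binomial test. By edgeR's exact test, which called 0.456% of all genes, the adjusted p was 0.0312. Platr16 (chr4:145410245-145449756, plus strand) went the other way, with 367 and 139 counts, or 10.5 and 4.67 CPM. Its log2 ratio was -1.18 ± 0.14, with adjusted p of 5.52e-16 and 0.0471 in the same tests. These were the only members called by edgeR's exact test. Of the transcripts of Platr16, 39.3% of 50-base stretches occur in other genes, and 43.6% of its exonic bases coincide with the pseudogene Gm13230 on the same strand, so its count is uncertain.

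With at least 100 counts, a log2 ratio past 0.5 in either direction was found for 4 of 39 genes, all pluripotency-linked, against 6.35% of all genes and 13% of long noncoding RNA genes at that depth. Besides Platr12 and Platr16 these were Platr15 and Platr5. Platr12 and Platr5, with 101 and 100 counts in both libraries together, lie at the edge of that filter. Depth differed between the classes here too, with median counting SEs of 0.14 for pluripotency-linked genes and 0.06 for hosts. Platr15 (chr2:150704536-150706876, minus strand) had 53 and 115 counts, or 1.52 and 3.86 CPM, with a log2 ratio of 1.33 ± 0.24. The adjusted p for Platr15 was 1.29e-07 by the exact binomial test, but 0.26 by edgeR's exact test. Platr5 (chr1:88754890-88755736, plus strand) had 67 and 33 counts, or 1.93 and 1.11 CPM, with a log2 ratio of -0.79 ± 0.30 (adjusted p = 0.039, exact binomial test). The call of Platr5 was lost without the trend on GC content and length (adjusted p = 0.0552) and without the filter on low counts (0.0539).

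Lncenc1, Platr10, Platr7 and Platr4 were called with small differences. Platr3, Platr14 and Platr13, which with Lncenc1 and Platr10 are the 5 most abundant of the class, were not called. Among the 4 called genes, all effects were below the log2 ratio of 0.5 used above. The log2 ratio was 0.13 ± 0.02 for Lncenc1, 0.28 ± 0.03 for Platr10, 0.20 ± 0.07 for Platr7 and 0.32 ± 0.12 for Platr4, all higher in replicate 2. None of these 4 passed edgeR's exact test, in which each had an adjusted p of 1, and Platr7 and Platr4 lost the binomial call when the GC and length trend was removed (adjusted p = 0.0695 and 0.157). Platr2 had 32 and 9 counts, a log2 ratio of -1.55 ± 0.53. Platr30 had 16 counts in replicate 1 and 0 in replicate 2, at least 4.57-fold lower in replicate 2 against a floor of 3 counts in that library. Both were called lower, and both share sequence with other genes, Platr2 in 29.9% and Platr30 in 92.0% of its 50-base stretches. Without Platr2, Platr16 and Platr30, 7 of 24 pluripotency-linked genes were called by the binomial test, against 24.2% of all genes tested. The median log2 ratio of the class was 0.08 while its mean was -0.16, or -0.07 with Platr30 at its bound, so median and mean differ in sign.

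Among the other RNAs, Neat1 had a log2 ratio of 0.49 ± 0.03 (adjusted p = 5.90e-68 in the exact binomial test, 0.0659 in edgeR's exact test) and Firre one of -0.41 ± 0.04 (8.13e-21 and 0.517 in the same exact tests). Both kept their direction without the GC and length trend, with 0.48 and -0.40. Malat1 was called at 0.05 ± 0.01 (adjusted p = 0.00357, exact binomial test), but its ratio was -0.015 without the trend, so that no direction can be given for it. Tug1, at 0.03 ± 0.03, was not called.

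**Figure D3:**
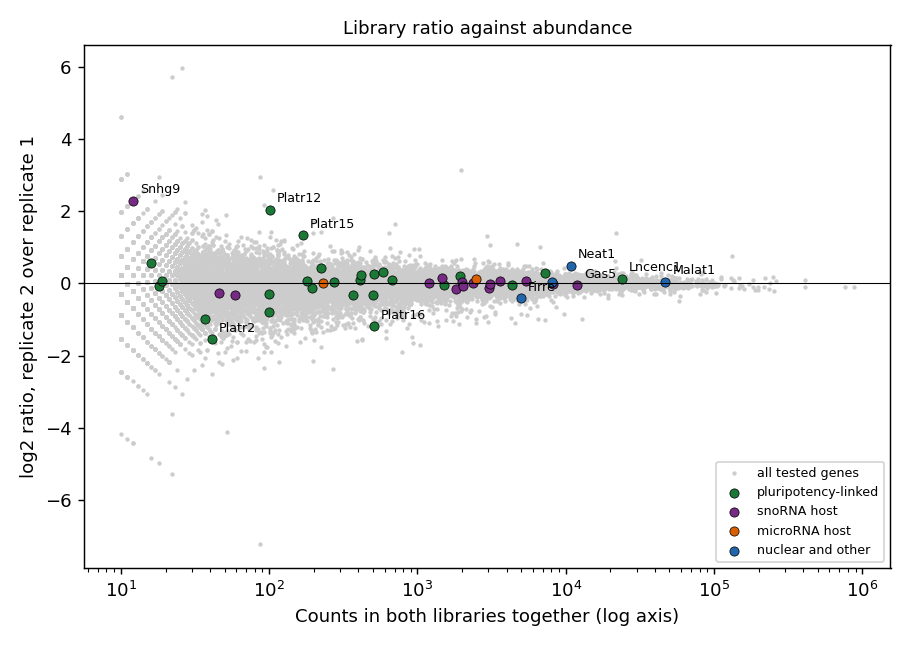
Log2 ratio of replicate 2 over replicate 1 against the counts of both libraries together (log axis), with all tested genes in grey and the named RNAs in the colour of their class; Platr30, given as a bound, is not drawn. Hosts with at least 100 counts lie between -0.17 and 0.14, and Platr12, Platr15, Platr16, Neat1 and Firre lie toward the edge of the grey cloud at their abundance.

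The genes around the most variable members were then examined. The nearest protein-coding gene lay a median of 15176 bases away for pluripotency-linked genes and 341 bases away for hosts. Over 43 pairs with both genes tested, member and nearest gene had a ratio of the same sign in 21, and bodies overlapped in 12 of the 50 cases. Platr12 lies within the body of Gpr1, a receptor gene on the opposite strand, which had 101 and 49 counts and a log2 ratio of -0.81 ± 0.25. At a gap of 65.3 kb on the strand of Platr12 lies Zdbf2, a gene imprinted in mouse, with 1664 and 3050 counts and a log2 ratio of 1.10 ± 0.04, called by edgeR's exact test too (adjusted p = 7.30e-09). RefSeq gives Zdbf2 an additional upstream start at base 63200358 of chromosome 1, which is 45 bases after the GENCODE start of Platr12 on the same strand, so reads at this start could belong to either annotation. Of 12 tested genes within 200 kb of Platr12, 3 were called, near the 24.2% of all genes, and Eef1b2, called beside Gpr1 and Zdbf2, had a log2 ratio of -0.09.

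Around Platr16, 8 of 12 tested genes within 200 kb were called by the exact binomial test, against 24.2% of all genes tested, and 9 had a ratio below 0. By edgeR's exact test only 1 of the 12 was called, Gm13230, against 0.456% of all genes. Gm13230, the pseudogene that shares exons with Platr16, had 1368 and 534 counts and a log2 ratio of -1.13 ± 0.07 (adjusted p = 1.02e-05 in edgeR's exact test). Zfp990, a zinc finger gene 61.0 kb away, had 7042 and 5021 counts and a log2 ratio of -0.27 ± 0.03. Tnfrsf8, a cytokine receptor gene, had -0.30, and Gm13212 had -0.48. Many genes of this region are pseudogenes and related zinc finger genes, whose reads the authors' counting could have split. Of the others, Platr15 had 7 tested genes within 200 kb, 2 of them called (24.2% over all genes), and its nearest coding gene Vsx1 had 11 and 15 counts. The nearest coding gene of Platr5, Arl4c, had 769 and 922 counts and a log2 ratio of 0.48 ± 0.07, opposite in sign to Platr5.

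**Figure D4:**
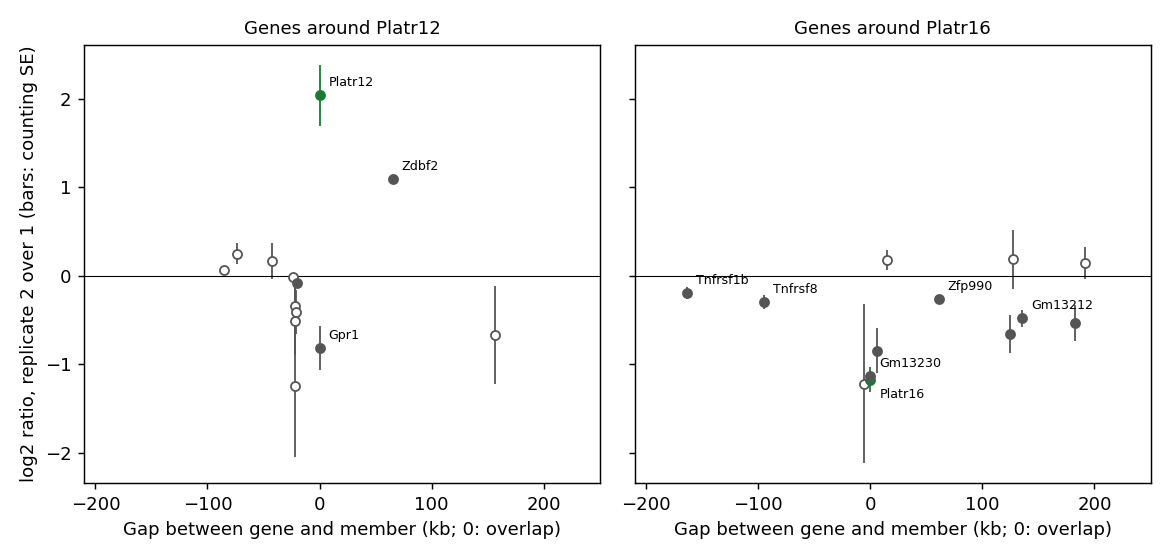
Log2 ratio of replicate 2 over replicate 1 (bars: 1 counting SE) for tested genes within 200 kb of Platr12 (left) and Platr16 (right), against the gap to the member in kb, negative toward lower coordinates; filled points were called by the exact binomial test. Zdbf2 is the only neighbour of Platr12 above 0.5, while 9 of 12 neighbours of Platr16 lie below 0.

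For the members with the highest levels, the nearest coding genes showed no common direction. Enc1, 182 kb from Lncenc1, had 4495 and 5181 counts and a log2 ratio of 0.43 ± 0.03. Serpini1, 3951 bases from Platr10, had 0.44 ± 0.14. Both were called higher, as were Plcb4 beside Platr3 (0.19) and Ccng1 beside Platr13 (0.15), whereas Cstf3 beside Platr14 was called lower (-0.15). Next to the hosts, Rcc1 (-0.05), Zbtb37 (0.09), Zfp949 (-0.06), Epb41l4a (0.06) and Slc3a2 (0.02) were not called. Nor were Frmd8 beside Neat1 (-0.08), Morc2a beside Tug1 (-0.03) and Tlcd2 beside Mir22hg (-0.63). Gpc5 beside Mir17hg had 1 count in each library and Olfr1324 beside Firre had 0.

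The listed genes for proteins that act with these RNAs were all expressed as RNA. For the counts called below, the share over all genes tested was 24.2%, and 32% with at least 100 counts. Of 16 genes for snoRNP assembly and core proteins, which package snoRNAs, 3 were called higher and 1 lower in replicate 2. The highest were Nhp2 (307 and 322 TPM), Nop56 (317 and 309) and Snu13 (261 and 267), and the lowest Znhit3 (21.2 and 20.1) and Shq1 (12.6 and 12.6). The median log2 ratio was 0.02, against -0.01 over all genes tested. Of 14 genes of nonsense-mediated decay, 7 were called higher and 1 lower, with a median of 0.07; Magoh had 284 and 305 TPM, Eif4a3 220 and 229, Rbm8a 111 and 128, Smg6 17.2 and 16.7, and Upf3a 14.5 and 16.1. Of 12 paraspeckle protein genes, 6 were called higher and 1 lower, with a median of 0.04. Hnrnpk had 419 and 449 TPM, Nono 286 and 285, and Sfpq, an essential paraspeckle protein, 248 and 291. The lowest were Rbm14 (65.1 and 64.2) and Pspc1 (21.7 and 25.4). Of 10 genes linked to the processing and nuclear retention of MALAT1, 6 were called higher and 0 lower, with a median of 0.13; Srsf2 had 366 and 384 TPM, Srsf1 218 and 242, Hnrnpu 151 and 174, Ddx59 14.9 and 14.0, and Rpp30 10.6 and 12.1. Of these 52 genes, 0 passed edgeR's exact test and 1 had an unadjusted p under 0.05 in it.

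Other long noncoding RNAs served as a further reference, with 24 of 26 symbols found and 14 expressed. Halr1 had 59.1 and 58.8 TPM, Rian 52.8 and 49.9, and Meg3 40.8 and 38.5. The median of the whole list was 2.38 and 2.48 TPM. Fendrr and Hotair, known from later embryonic tissues, were at 0 in both libraries. In this list 3 were called higher and 4 lower of 19 tested, against 8.19% of long noncoding RNA genes and 24.2% of all genes, with 0 by edgeR's exact test and 1 at an unadjusted p under 0.05 in it, and the median absolute log2 ratio was 0.27.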

How the data were processed

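Polyadenylated RNA of 2 libraries of 1 group was analysed. Trizol extraction and reverse-stranded TruSeq libraries from 1 ug of total RNA are stated, per the labels' protocols. The submitters' processing notes name STAR 2.4.2a and mm10 (GRCm38). The authors deposited whole-number read counts per Ensembl gene. How reads were counted (tool, strand setting, shared reads, annotation release) is not given in the sources used here, so overlapping, antisense and repeated genes may share, split or lose reads.

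Gene IDs were named with GENCODE M21, and the 419 IDs without a name (0.116 and 0.124% of counts) stayed in the totals. CPM used library totals of 34798975 and 29789560 counts, so that 1 count equals 0.0287 and 0.0336 CPM. TPM used exon lengths merged over transcripts, which understates genes with many retained introns. The libraries were compared with an exact binomial test (two-sided, scipy 1.17.1) at TMM-scaled sizes for genes with at least 10 counts, with Benjamini-Hochberg adjustment and a pseudocount of 0.5, and by edgeR 4.0.16's exact test with a trended dispersion. Alternatives were DESeq2 1.42.0 size factors, totals without TMM, other filters, pseudocounts and thresholds, removal of a trend on GC content and length (lowess, fraction 0.3), subsets of members, and leaving out each library. The tests were checked on simulated data.

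Named in full are the 5 members of each class with the highest mean TPM, those called by edgeR, those with at least 100 counts and a log2 ratio past 0.5, and their nearest coding genes, of which 1 is not reported here; of the companion lists, the 3 highest and 2 lowest genes. Tnfrsf8, Gm13212, Gm13230, Eef1b2, Zdbf2 and Thy1 are named although chosen after their values were known. The members, classes and companion lists (other long noncoding RNAs, snoRNP, nonsense-mediated decay, paraspeckle and MALAT1 processing genes, and cell type markers) were chosen with earlier results of these data known. Sequences are from RefSeq (GRCm38.p6).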

Additional observations from a re-analysis of the deposited data

How the results depend on the processing

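No paired analysis was possible because both libraries belong to 1 group. The number of members expressed lay between 35 and 42 under other thresholds and was 39 with either library alone. The difference of class medians was -2.77, and from -2.87 to -2.67 with 1 library left out. It was -1.51 with means, -2.33 among genes at 1 CPM, -3.00 for hosts with an annotated snoRNA or scaRNA, -3.00 without Snhg7os, and 2.19 over the 28 genes free of exon overlap, of which 3 are hosts. edgeR's exact test called 2 members in place of 13, and 2 pluripotency-linked genes in place of 10. It is built on a dispersion that takes in the differences between the libraries. Among hosts 1 was called with at least 100 counts and 6 without the GC and length trend, in place of 0, and without that trend the log2 ratio of Malat1 was -0.015. The cause of these changes was not tested. For hosts the median log2 ratio of -0.01 was -0.083 without the trend, -0.27 without exon overlap (3 genes) and 0.10 as a mean, and the median absolute ratio of 0.07 was 0.27 without exon overlap and 0.24 as a mean. For pluripotency-linked genes the mean was -0.16 and the mean absolute ratio 0.62, and over all members the latter was 0.45; Platr30, at 0 counts in replicate 2, enters these means with a fitted value that is no bound. With DESeq2 size factors, totals without TMM or 2 counts added, no call among the 48 members tested changed, and only Mir22hg, near 0 throughout, changed sign (-0.0012, against 0.00089 without TMM and 0.0016 with 2 counts added). The subset without shared sequence, the overlap rule for small RNA genes and the removal of Snhg7os were added after the data were seen. Depth limits genes under about 100 counts, and 11 of 50 members were under that.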

Other observations

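The naming rule left out 4 symbols of the same families. Platr17, Platr25 and Snhg11 are annotated as protein-coding in GENCODE M21, and Snhg10 was not analysed here. Platr17 had 962 counts in replicate 1 and 753 in replicate 2. Platr25 had 136 and 111 counts, and Snhg11, a snoRNA host by name, had 2471 and 2264.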
